A study of Homo sapiens with 6 samples.

Results

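Kallikrein-related peptidases are secreted serine proteases of the trypsin fold, encoded side by side in 1 cluster on human chromosome 19. The 10 members described here, KLK1, KLK2, KLK3, KLK4, KLK6, KLK7, KLK8, KLK10, KLK11 and KLK13, were looked up by Ensembl identifier among the 58096 gene rows of the deposited count table. They had been picked with the counts of the PGC1A against GFP comparison known, so their own values in that comparison are a description and carry no test. The cluster holds 15 KLK genes in all, and the 5 that were not picked (KLK5, KLK9, KLK12, KLK14 and KLK15) are given beside the members.

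The cells were SH-SY5Y, an established human neuroblastoma line labelled as neuronal progenitor. They were grown in DMEM with 10% FBS in 10 cm plates to 80% confluence. For all 6 libraries the labels then give 2 ul of an adenovirus for 48 h, which carried GFP in 3 libraries (group GFP) and PGC-1a in 3 (group PGC1A). The coactivator PGC-1a (gene PPARGC1A) is best known for raising mitochondrial genes through nuclear receptors, and the series examines what its expression does to the transcriptome. The labels give no virus titre, no separate cultures and no promoter for the inserts, and no library without virus was analysed here. Virus dose and PGC-1a therefore cannot be told apart, and the spread between replicates may be technical.

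Kallikreins are made as inactive proenzymes, secreted, and switched on by cleavage, often by one another. Tissue kallikrein (KLK1) releases kinins from kininogen, KLK2 and KLK3 act in semen, others act in shedding of the outer skin, and KLK6 and KLK8 are known from the nervous system. Several of the genes respond to steroid hormones, with KLK2 and KLK3 among the best known genes induced by androgens.

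Between 24988743 and 31762496 reads per library were counted in genes. PPARGC1A had 98 to 135 counts in the GFP libraries and 103737 to 109350 in the PGC1A libraries. Of 17 markers of sympathoadrenal neuroblasts, 16 passed the filter on low counts. Of these, 12 fell in PGC1A (75%, against 42.1% of all genes) and 2 rose (12.5%, against 40.9%), with a median log2 fold change of −1.06. The summed level of the list went from 2470 to 2500 CPM in GFP to 1560 to 1580 CPM in PGC1A. The largest falls were those of SLC18A1 (−4.855 on the log2 scale), DBH (−3.265) and DDC (−2.987), and the 2 rises were SYP (2.893) and CHGA (1.574). TH, which encodes the first enzyme of catecholamine synthesis, had 0 counts in GFP and 21 over the PGC1A libraries. TH did not pass the filter and was named after its value was seen. CPM here means counts scaled to library size after TMM normalisation. Of 19343 genes tested with edgeR's quasi-likelihood test, 40.9% were higher and 42.1% lower in PGC1A at an adjusted p under 0.05 (83.0% in either direction). Scaling by total counts gave 5778 higher and 10743 lower genes in place of 7909 and 8148. The libraries are bulk RNA, in which a change in the number of cells that use a gene and a change in RNA per cell cannot be told apart.

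The stretches just upstream of a RefSeq transcription start are shown for 4 members, since several of these genes became detectable together. RefSeq windows on GRCh38.p14 were found for 8 of the 10 members. KLK1 and KLK8 had none. The 250 bases before the start are printed in transcript direction, for KLK3 (chr19:50854665-50854914, plus strand), KLK2 (chr19:50873189-50873438, plus strand), KLK11 (chr19:51026617-51026866, minus strand) and KLK7 (chr19:50983918-50984167, minus strand). KLK3 and KLK2 carry the androgen response element for which the pair is known, KLK11 is the RefSeq-covered member with the highest level in PGC1A, and KLK7 was not detected there. KLK11 has 2 windows and KLK7 has 3, of which 1 each is shown. The KLK2 and KLK11 stretches shown lie within the annotated gene spans given below, and the KLK7 stretch lies partly within its own. Which starts these cells use was not tested. Capitals mark matches on either strand to any of 4 motifs. The first, AGGTCA, is a half-site of nuclear receptors. The second, AGAACA, is a half-site of androgen response elements. The next, GAACANNNAGTGCT, is the form of the KLK3 androgen response element and was chosen after the KLK3 window had been read. The last, TATAAA, is a TATA box.
KLK3: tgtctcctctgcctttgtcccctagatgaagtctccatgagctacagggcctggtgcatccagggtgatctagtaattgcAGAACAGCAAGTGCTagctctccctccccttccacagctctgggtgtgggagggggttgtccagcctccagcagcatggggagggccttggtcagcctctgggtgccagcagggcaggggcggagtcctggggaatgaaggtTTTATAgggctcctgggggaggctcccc
KLK2: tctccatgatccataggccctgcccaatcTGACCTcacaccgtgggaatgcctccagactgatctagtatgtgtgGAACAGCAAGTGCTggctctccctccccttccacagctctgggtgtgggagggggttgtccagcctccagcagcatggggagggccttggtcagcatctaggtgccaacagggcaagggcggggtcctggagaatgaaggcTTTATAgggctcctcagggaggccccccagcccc
KLK11: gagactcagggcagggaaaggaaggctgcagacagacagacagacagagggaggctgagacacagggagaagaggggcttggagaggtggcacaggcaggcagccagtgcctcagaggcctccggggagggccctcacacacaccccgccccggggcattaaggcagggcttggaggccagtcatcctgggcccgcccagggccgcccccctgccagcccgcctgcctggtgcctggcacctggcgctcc
KLK7: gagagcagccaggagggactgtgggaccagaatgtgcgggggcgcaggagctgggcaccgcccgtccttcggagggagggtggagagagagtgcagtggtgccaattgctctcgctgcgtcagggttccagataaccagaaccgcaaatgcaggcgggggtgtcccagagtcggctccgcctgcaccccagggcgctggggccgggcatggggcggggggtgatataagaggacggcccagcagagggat

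The KLK3 and KLK2 windows matched over 203 of 238 aligned bases (85.3%), with a longest shared run of 80 bases. Both held GAACAGCAAGTGCT, which in KLK3 began 169 bases before the start and in KLK2 175 bases before it. In KLK3 the A before it completed AGAACA, and in KLK2 it did not. GAACANNNAGTGCT occurred in 14 of 35116 RefSeq windows of that length (0.0399%). Both windows also held TATAAA on the opposite strand, 28 to 23 bases before the KLK3 start and 34 to 29 before the KLK2 start, a motif found in 10.7% of all windows. AGGTCA (12.1% of all windows) was found in KLK2 and in the second of the KLK13 windows, AGAACA (12.4%) in KLK3 alone among the members. The KLK13 match lies within the annotated gene, downstream of the transcription start that belongs to the first KLK13 window. TNAAGGTCA, the extended half-site of estrogen-related receptors, was found in no member window and in 0.854% of all windows. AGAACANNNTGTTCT, the full palindrome of androgen response elements, was in no KLK window either. The KLK11 and KLK7 windows matched none of the 6 motifs. Overlapping motifs were each counted, and a match is only a run of letters. The ratio of observed to expected CpG had a median of 0.379 over the 14 member windows and 0.558 over all windows, at median GC contents of 62% and 58%. KLK3 had 1 CpG and KLK2 had 2 in their windows, whereas KLK7 had 15.

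Expressed together, the 10 members went from near silence to a readily counted level. They summed to 5, 4 and 4 counts in the GFP libraries and to 1214, 1215 and 1191 in the PGC1A libraries. On the CPM scale the sum was 0.137 ± 0.0359 in GFP and 46.1 ± 0.650 in PGC1A (SD, n = 3), a ratio of 336. KLK1 supplied 57.6% of the members' PGC1A counts and KLK11 supplied 28.5%, shares that also depend on transcript length. KLK2 supplied 76.9% of their few GFP counts and 2.87% of those in PGC1A, so the ratio compares sums carried by different genes. In 7 of the 10 members every PGC1A library lay above every GFP library in CPM, which held for 25.8% of the 38779 gene rows with any count. The other 3 (KLK4, KLK7 and KLK8) had at most 4 counts over the PGC1A libraries. Of 9 members with no more than 3 counts over the GFP libraries, 6 were higher in every PGC1A library, against 11.4% of 3931 protein-coding genes with as few GFP counts. Since the members were picked on this comparison, nothing is read from these shares. Only 5 members (KLK1, KLK2, KLK3, KLK11 and KLK13) passed the filter on low counts, through their PGC1A libraries.

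**Figure D1:**
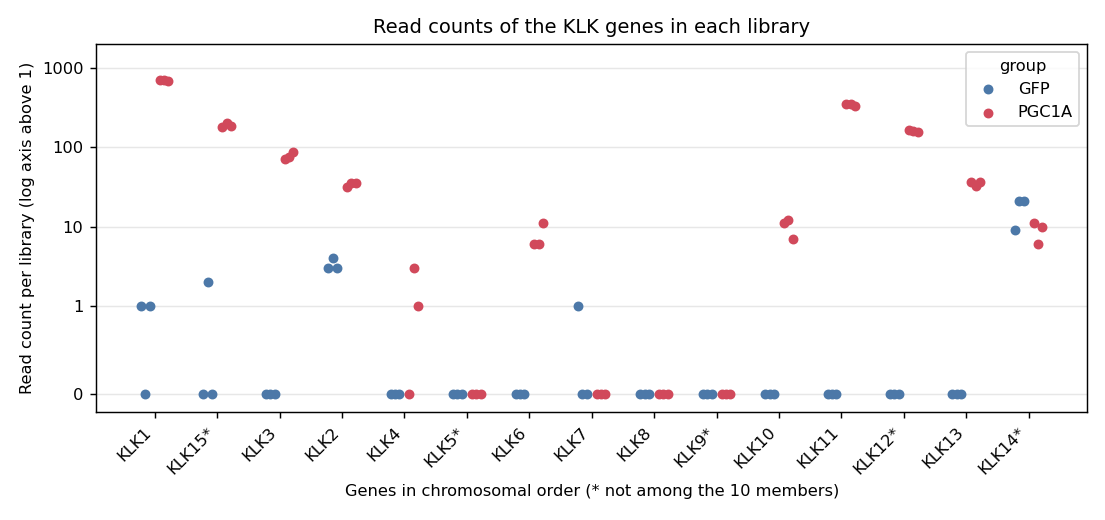
Read counts (vertical axis, logarithmic above 1) of the 15 KLK genes in their order along chromosome 19, with 1 point per library, blue for GFP and red for PGC1A. KLK1 stands at 684 to 706 counts in PGC1A against 0 or 1 in GFP, while KLK7 and KLK8 lie at 0 in all PGC1A libraries.

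KLK1 (ENSG00000167748.10, chr19:50819148-50823787, minus strand, GRCh38) encodes tissue kallikrein, the enzyme that releases the kinin kallidin from low molecular weight kininogen. Its GFP libraries held 1, 0 and 1 counts, and its PGC1A libraries held 706, 695 and 684. The groups lay far apart and the PGC1A libraries were nearly level, at 26.5 ± 0.237 CPM (SD, n = 3), a coefficient of variation of 0.893%. The ratio of the groups was 1284, with a 95% counting interval of 355 to 10610, because only 2 reads stand in the denominator. Intervals and floors given here cover counting error only, as reads were not marked by molecular identifiers.

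KLK11 (ENSG00000167757.13, chr19:51022216-51028039, minus strand), a trypsin-like member described in brain and prostate, had 0 counts in all GFP libraries. It had 351, 354 and 327 counts in the PGC1A libraries, or 13.1 ± 0.316 CPM (SD, n = 3). Taking 3 counts over the GFP group as the limit that a count of 0 allows (0.031 CPM), KLK11 was at least 424-fold higher in PGC1A. KLK13 (ENSG00000167759.12, chr19:51056206-51065114, minus strand), another trypsin-like member, also had no GFP reads. Its PGC1A libraries held 37, 33 and 37 counts, 1.36 ± 0.0999 CPM, at least 43.9-fold higher. Neither gene shares exon bases with another annotated gene.

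KLK3 and KLK2, the pair expressed in the prostate, were both higher in PGC1A, from unlike starting points. KLK3 (ENSG00000142515.14, chr19:50854915-50860764, plus strand) encodes prostate-specific antigen, a chymotrypsin-like enzyme that liquefies semen by cutting semenogelins. It had 0 counts in GFP and 71, 76 and 88 in PGC1A (2.997 ± 0.408 CPM), at least 96.5-fold higher. KLK2 (ENSG00000167751.12, chr19:50861568-50880567, plus strand), which can activate the KLK3 proenzyme, was the only member with reads in all GFP libraries. It had 3, 4 and 3 counts there and 32, 36 and 36 in PGC1A, going from 0.104 ± 0.0184 to 1.33 ± 0.113 CPM (SD, n = 3), a ratio of 12.8. In both genes the groups were separated, but at most 88 reads per library leave wide counting error. KLK2 and KLK3 have similar coding sequences, and reads that align to several places are among the 12.4% to 14.4% of reads set aside in each library, so their counts are uncertain.

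KLK10 and KLK6 were detected in PGC1A alone, at levels near the limit of these libraries. KLK10 (ENSG00000129451.11, chr19:51012739-51020175, minus strand), known for its loss in breast tumours, had 11, 12 and 7 counts in PGC1A and none in GFP, at least 12.3-fold higher. KLK6 (ENSG00000167755.13, chr19:50958631-50969673, minus strand), also called neurosin, is a brain protease known to cut alpha-synuclein and myelin proteins. It had 6, 6 and 11 counts in PGC1A and none in GFP, at least 9.44-fold higher. Neither gene passed the filter on low counts. Antisense genes on the opposite strand cover 20.3% of KLK6 exon bases and 6.23% of those of KLK10. Whether counting used strand is not given in the sources used here, although those antisense genes had 0 counts in every library.

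KLK4, KLK7 and KLK8 stayed at or near 0. KLK4 (ENSG00000167749.11, chr19:50906352-50910738, minus strand), a prostate protease that is also needed for hardening of tooth enamel, had 0, 3 and 1 counts in PGC1A and 0 in GFP, so its groups overlapped. KLK7 (ENSG00000169035.11, chr19:50976482-50984099, minus strand), the chymotrypsin-like enzyme of the outer skin, had 1 count in GFP replicate 1 and 0 elsewhere. KLK8 (ENSG00000129455.15, chr19:50996007-51002711, minus strand), also called neuropsin and known for a role in hippocampal plasticity, had 0 counts in all 6 libraries. A count of 0 over the PGC1A group allows a level of up to 0.0382 CPM. For KLK8 that limit is not firm, because 40.1% of its exon bases are shared with AC011473.4, a coding gene that runs through KLK8 and KLK9. Reads in shared exons cannot be given to 1 gene. AC011473.4 itself had 0 counts in GFP and 3 in each PGC1A library.

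**Figure D2:**
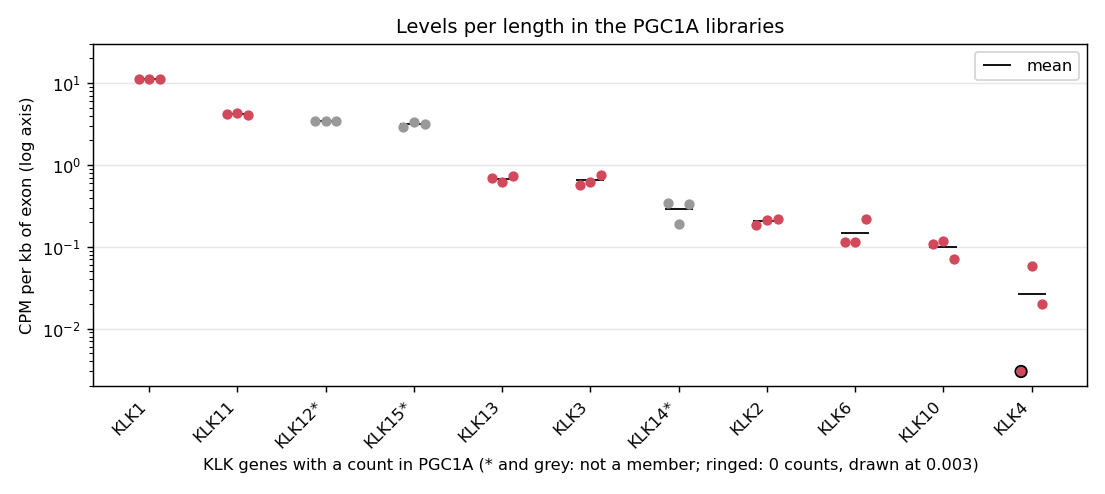
Level in CPM per kb of exon (logarithmic axis) of the 11 KLK genes with a count in PGC1A, 1 point per PGC1A library and a bar for the mean, red for members and grey for the others, with a ring on the 1 KLK4 library at 0. KLK1 leads at 11.2 CPM per kb, followed by KLK11 at 4.22, and KLK13 and KLK3 overlap.

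Levels were compared between genes per kb of exon, using all annotated exons of a gene, which is longer than any 1 transcript. In PGC1A the order began with KLK1 at 11.2 ± 0.0995 CPM per kb and KLK11 at 4.22 ± 0.101 (SD, n = 3), 2.65 times apart. KLK12 (3.47 ± 0.00733) and KLK15 (3.16 ± 0.240), which are no members, came next, and each of these 4 genes lay outside the library range of the next. KLK13 (0.679 ± 0.0498) and KLK3 (0.646 ± 0.0881) followed at a distance and could not be ordered, as their library ranges overlapped. KLK14, KLK2, KLK6 and KLK10 filled the range from 0.289 down to 0.0987 CPM per kb, each overlapping the next, and KLK4 came last at 0.0264. In GFP the members with any reads were KLK1, KLK2 and KLK7, at 0.00893, 0.0163 and 0.00488 CPM per kb, all too few reads to order.

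The 5 KLK genes outside the members showed the same mixture. KLK12 had 0 counts in GFP and 164, 162 and 157 in PGC1A (6.15 ± 0.0130 CPM, SD, n = 3), at least 198-fold higher. KLK15, a prostate member, had 2 counts in GFP, both in replicate 2, and 178, 204 and 186 in PGC1A, a ratio of 350 with a 95% counting interval of 96.4 to 2896. KLK5, the trypsin-like partner of KLK7 in skin, and KLK9 had 0 counts in every library, and 93.7% of KLK9 exon bases are shared with AC011473.4. KLK14, a trypsin-like skin protease, was the only KLK gene with a higher mean in GFP apart from the single KLK7 read. It had 9, 21 and 21 counts there and 11, 6 and 10 in PGC1A, 0.515 ± 0.169 against 0.344 ± 0.101 CPM, and its groups overlapped.

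Summed levels differed between stretches of the cluster, and few genes carried each high sum. The 15 genes span 265.1 kb (chr19:50819148-51084245). The group at the KLK1 end (KLK1, KLK15, KLK3 and KLK2) summed to 36.9, 38.4 and 39.0 CPM in the PGC1A libraries, against 0.145 ± 0.0344 CPM in GFP. The 6 genes from KLK4 to KLK9 in the middle summed to 0.224, 0.342 and 0.470 CPM in PGC1A. The run from KLK10 to KLK13 summed to 21.1, 21.3 and 20.7 CPM in PGC1A and had no GFP reads. Most of it came from KLK11 (13.1 CPM) and KLK12 (6.15), while KLK10 (0.381) was near KLK6 (0.294) of the middle stretch. At the KLK1 end most came from KLK1 (26.5) and KLK15 (7.23), with KLK2 at 1.33 CPM. KLK14 closes the cluster with the values given above. These blocks were drawn after the values were seen and get no test.

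Other rows inside the cluster did not all move with the members. KLKP1, a transcribed KLK pseudogene between KLK2 and KLK4, had 26, 46 and 32 counts in GFP and 13, 4 and 10 in PGC1A, and fell by 1.63 on the log2 scale (SE 0.31, edgeR adjusted p = 4.94e-06). AC011523.1, a non-coding gene that starts within KLK15 on the opposite strand, had no GFP counts and 24, 16 and 17 in PGC1A, at least 23.4-fold higher. It passed the filter on low counts through its PGC1A libraries alone, so no test is given for it. AC011473.3, opposite KLK12, had 0 counts in GFP and 28 over PGC1A, and 33.0% of its exon bases lie over KLK12. With the strand setting unknown, its reads and those of KLK12 cannot be told apart in the shared part.

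**Figure D3:**
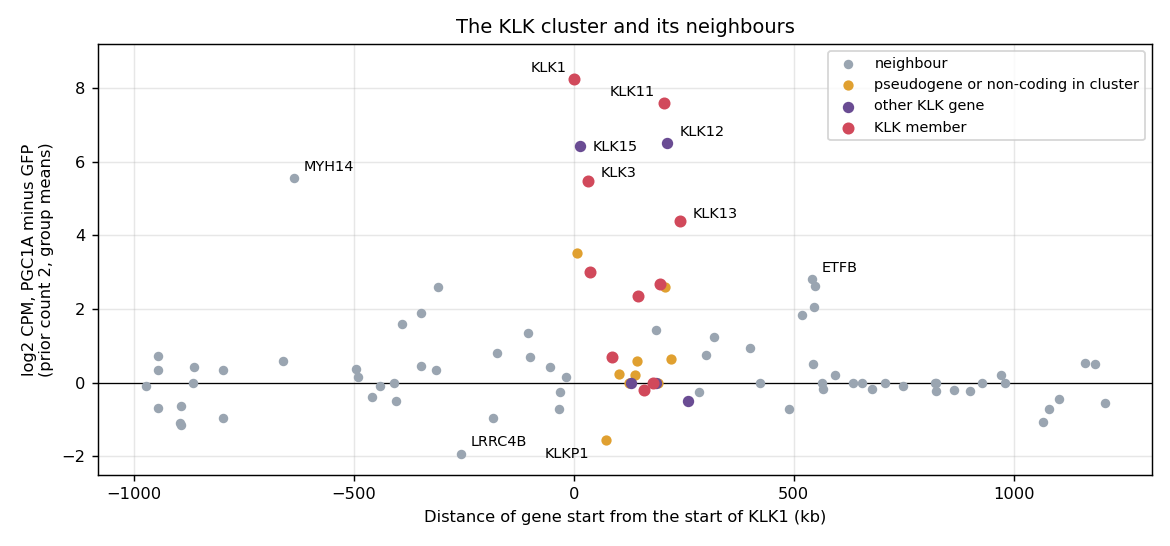
Difference in mean log2 CPM (PGC1A minus GFP, prior count 2, which understates genes at 0) against distance of the gene start from that of KLK1 in kb, for KLK genes, other rows of the cluster and coding neighbours. KLK1, KLK11, KLK12 and KLK15 stand above all neighbours. KLK3, KLK13 and KLK2 stand above all neighbours except MYH14, and KLKP1 lies below 0.

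Coding neighbours within 1 Mb of either end of the cluster moved in both directions. Of 67 such genes (AC011473.4 among them), 37 were tested, 20 were higher (54.1%, against 40.9% of all genes) and 13 lower (35.1%, against 42.1%), with a median log2 fold change of 0.16 against −0.03 over all genes tested. With total counts the split was 14 higher and 19 lower. The genes next to the cluster changed little or were barely read. On the KLK1 side, C19orf48, 14.2 kb away, was at 22.4 ± 1.09 CPM in GFP and 24.9 ± 0.982 in PGC1A (log2 fold change 0.16, SE 0.05, adjusted p = 0.00594, edgeR), turned to −0.17 with total counts, and lost its call with upper-quartile factors and without GFP replicate 3. AC010325.1 and ACP4, a testicular acid phosphatase gene, had 5 and 14 counts over PGC1A and 11 and 33 over GFP. On the KLK14 side, CTU1, a tRNA thiolation gene 24.1 kb away, was at −0.26 (SE 0.11, adjusted p = 0.0308), a call lost with RLE factors, no filter, DESeq2, without GFP replicate 2 and without any 1 PGC1A library, with adjusted p from 5.2e-06 to 0.273 over all alternatives. SIGLEC9 and SIGLEC7, sialic acid receptors of immune cells, had 1 and 0 counts over GFP and 6 and 8 over PGC1A.

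Farther out, the largest rises were those of MYH14, NKG7 and ETFB. MYH14, a non-muscle myosin heavy chain gene, had 0, 1 and 2 counts in GFP and 125, 101 and 120 in PGC1A (6.97 higher on the log2 scale). It too passed the filter on low counts through its PGC1A libraries alone. NKG7, a gene of cytotoxic granules, rose from 0.251 to 1.91 CPM. ETFB, a subunit of the mitochondrial electron transfer flavoprotein, averaged 4.41 ± 0.246 CPM over the GFP libraries and 31.3 ± 2.19 over PGC1A (SD, n = 3), a rise of 2.82 (log2, edgeR adjusted p = 2.61e-36). LRRC4B, a synaptic adhesion gene, fell by 1.93, ZNF577, a zinc finger gene, by 1.12 and ATF5, a stress-response factor, by 1.09 on the log2 scale.

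Inhibitors of kallikreins were measured next. Of 16 genes listed, 7 were tested, 4 rose and 1 fell (57.1% and 14.3%, against 40.9% and 42.1% of all genes), with a median log2 fold change of 1.19 (with total counts, 4 and 2). SERPINA5, the protein C inhibitor, a serpin of semen and plasma that binds several kallikreins, had 190, 259 and 219 counts in GFP and 9322, 9001 and 8450 in PGC1A. The mean was 6.91 ± 0.841 CPM over GFP against 340.5 ± 8.75 over PGC1A (SD, n = 3), higher by 5.62 on the log2 scale with an SE of 0.04 and an edgeR adjusted p of 2.26e-55. SPINT1, a membrane-bound inhibitor of trypsin-like proteases, was at 2.05 CPM in GFP and 13.9 in PGC1A, a rise of 2.76 (log2). The intracellular serpin gene SERPINB6 rose by 1.19, to 154.6 CPM. SPINK5, the skin inhibitor of KLK5, KLK7 and KLK14, rose by 2.14 but from only 22 to 80 counts over the group. It passed the filter on low counts through its PGC1A libraries and was named after its value was seen. A2M, alpha-2-macroglobulin, fell by 0.78. Among inhibitors that did not pass the filter, SPINK9, SPINK1 and PZP went from 30, 20 and 18 counts over GFP to 1, 2 and 8 over PGC1A. SERPINA1 went from 2 to 12. In each of these genes the groups did not overlap, and they too were named after their values were seen. SERPINA3, the main serpin partner of KLK3 in blood, had 0 counts in every library, with 31.8% of its exon bases shared with another gene.

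Proteases that activate kallikreins or act beside them divided. Of 14 listed, 5 were tested, with 2 higher (40%, against 40.9% of all genes) and 3 lower (60%, against 42.1%) and a median of −1.37. CTSC, cathepsin C, which can activate the KLK4 proenzyme, rose by 0.98 on the log2 scale and KLKB1 by 2.23 (edgeR adjusted p = 5.35e-22). KLKB1 encodes plasma kallikrein, lies on chromosome 4 and had 35, 47 and 66 counts in GFP and 191, 187 and 186 in PGC1A. The plasminogen activator genes PLAT and PLAU fell by 2.66 and 1.70, and PRSS3, mesotrypsin, by 1.37. A gene on the opposite strand covers 31.1% of PLAU exon bases. The membrane protease ST14 (matriptase) had 1 count in each group, and PLG and TMPRSS15 had none.

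Genes for substrates and receptors mostly fell. Of 26 listed, 14 were tested, 12 were lower (85.7%, against 42.1% of all genes), 1 was higher and the median was −0.86. IGFBP3, an insulin-like growth factor carrier that KLK3 cuts, averaged 163.5 ± 4.09 CPM over GFP and 27.8 ± 0.702 over PGC1A (SD, n = 3), lower by a log2 fold change of −2.56 (edgeR adjusted p = 8e-48). The protease-activated receptor genes F2R and F2RL2 fell by 1.39 and 1.71. F2RL1, the receptor PAR2 that several kallikreins can switch on, fell by 1.38 (900, 1054 and 1153 counts in GFP, 340, 307 and 321 in PGC1A). The kinin receptor gene BDKRB2 fell by 0.31 and BDKRB1 was at −0.13 (adjusted p = 0.423), while KNG1, the kininogen that KLK1 cleaves, had 17 counts over GFP and 0 over PGC1A. F2RL1 and the kinin genes were named after their values were seen. MBP, a myelin protein that KLK6 cuts, rose by 1.08 from 0.970 CPM. The semen and skin substrates SEMG1, SEMG2, CDSN, DSG1 and DSC1 had at most 3 counts in all.

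Steroid hormone and estrogen-related receptors were looked at because of the hormone response of the family. Of 9 listed, 7 were tested, with 3 higher (42.9%, against 40.9% of all genes), 2 lower (28.6%, against 42.1%) and a median of −0.03. PGR, the progesterone receptor, had 1 count over GFP and 0 over PGC1A. ESRRB, which passed the filter on low counts through its PGC1A libraries, rose from 3, 9 and 5 counts to 287, 319 and 288 (5.98 on the log2 scale). ESRRA, the estrogen-related receptor that PGC-1a is known to coactivate, rose by 2.10 and ESRRG fell by 0.97. NR3C2, the mineralocorticoid receptor gene, rose by 2.56 from 12 to 59 counts and ESR2 fell by 1.17, both named after their values were seen. With total counts 4 receptor genes were lower and 3 higher. Of 23 androgen-response genes outside the family, 18 were tested, with 6 higher (33.3%, against 40.9% of all genes), 9 lower (50%, against 42.1%) and a median of −0.08. ACSL3, MPHOSPH9 and TBC1D4 rose by 1.68, 1.49 and 1.28, and the falls included PMEPA1 (1.10), NDRG1 (0.91) and MED28 (0.85). A gene on the opposite strand covers 32.1% of MED28 exon bases. TMPRSS2, one of the most used androgen targets, had 0 counts in GFP and 4 in PGC1A.

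**Figure D4:**
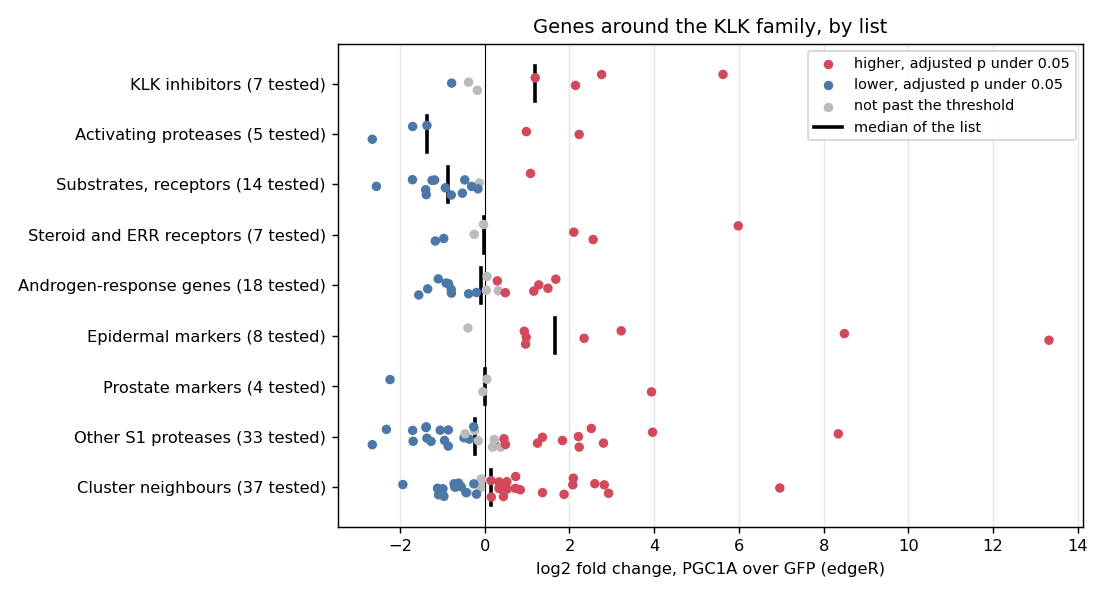
Log2 fold change (PGC1A over GFP, edgeR) of the tested genes of 9 lists, red where higher and blue where lower at an adjusted p under 0.05, grey otherwise, with a black bar at each median. Substrates and receptors have a median of −0.86 and epidermal markers one of 1.66. The epidermal median includes DMKN, SBSN and ALOX12B, which passed the filter on low counts through their PGC1A libraries.

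Markers of tissues that normally make kallikreins were measured as a check on other cell types. Of 23 keratinocyte and epidermal barrier genes, 8 were tested, with 7 higher (87.5%, against 40.9% of all genes) and 0 lower, against 42.1%. DMKN, SBSN and ALOX12B passed the filter on low counts through their PGC1A libraries, so entry to the test fixed their direction. The share of 87.5% rests in part on them, and 15 of the 23 genes were not tested. IVL was lower with total counts only. The summed level of the 23 genes went from 23.8 to 27.0 CPM in GFP to 100 to 107 CPM in PGC1A. DMKN, a secreted epidermal protein, had 0 counts in GFP and 1116, 1202 and 1114 in PGC1A, at least 1409-fold higher. SBSN, suprabasin, had 1 and 412 counts over the groups, and ALOX12B, a barrier lipoxygenase gene, rose by 3.22 on the log2 scale. A gene on the opposite strand covers 26.8% of ALOX12B exon bases. KRT10, the keratin partner of KRT1, was at 20.4 CPM in GFP, most of the list's summed level there, and at 38.9 CPM in PGC1A, a rise of 0.93 on the log2 scale (edgeR adjusted p = 1.43e-18). It was named after its value was seen. The keratins KRT5 and KRT1, LORICRIN, DSG3 and KRTDAP had 0 counts in every library, KRT14 had 1 in all, and 9 of the 23 were at 0 throughout. Of 10 prostate luminal markers, 4 were tested, of which 1 was higher and 1 lower (25% each, against 40.9% and 42.1% of all genes). These were STEAP2, a metalloreductase, higher (3.94) and ACP3, prostatic acid phosphatase, lower (−2.24 on the log2 scale). The summed level of the 10 was 31.3 to 31.5 CPM in GFP and 143 to 144 in PGC1A, most of it from STEAP2, at 120.5 ± 1.18 CPM. HOXB13 had 0 counts in all libraries, and MSMB and FOLH1 had 5 and 0 over PGC1A. These markers' part in the KLK values was not tested.

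Other serine proteases of the same fold showed no shared direction. Of 86 listed, 33 were tested, with 12 higher (36.4%, against 40.9% of all genes) and 15 lower (45.5%, against 42.1%) and a median of −0.24. Without the filter on low counts 21 were higher, and with total counts 9 were higher and 18 lower. F7, a coagulation factor, rose by 3.96 on the log2 scale and TMPRSS6, matriptase-2, by 2.80. TPSG1, with at most 3 counts over GFP, had the largest rise of the list (8.35) and was named after its value was seen. PRSS35, with PLAT and PLAU, was among the largest falls (2.32). Of 39 with at most 3 GFP counts, 8 were higher in every PGC1A library. Over all protein-coding genes with as few GFP counts it was 449 of 3931 (11.4%), a lower share.

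The coding genes whose levels over the 6 libraries lay nearest to those of KLK1, by Euclidean distance of log2 CPM, were CEACAM5, PSG3, MT3, VSTM1 and ITGAX, at distances of 0.748 to 0.970. CEACAM5, a cell adhesion molecule, had 2 counts over GFP and 2412 over PGC1A (30.7 ± 0.460 CPM), and PSG3, a pregnancy-specific glycoprotein, had 0 and 2067. CEACAM5, PSG3 and VSTM1 also lie on chromosome 19. With only 2 groups such nearness means little more than a like level in each, and CEACAM5 and PSG3 have near-identical paralogs, which makes their counts uncertain.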

How the data were processed

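RNA was sequenced from 6 libraries by a poly(A) method with a strand-retaining module, per the labels' protocols. The values are raw counts of reads per gene, as the authors deposited them. Among tools, HTSeq 0.10.0, STAR 2.6.0c, DESeq2 1.20.0 and DRAGEN are listed in the submitters' processing notes, beside GRCh38, with no roles. Neither annotation release nor strand setting is given in the sources used. HTSeq's 5 summary lines, 28.8% to 31.1% of the reads, were left out. Of 58096 gene rows, 57492 were matched to GENCODE 29 (GRCh38), which gave names, coordinates and exon lengths.

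The test was edgeR 4.0.16 (R 4.3.3): TMM, filterByExpr (minimum count 10, total 15), glmQLFit with robust estimation, glmQLFTest, Benjamini-Hochberg over 19343 genes, two-sided, threshold 0.05. The procedure was also run on simulated counts in which 50 genes were changed at each fold from 1.5 to 10. In these libraries 83.0% of genes were called, so that run cannot check the scaling used here. The members and lists were chosen with earlier results of these data known. Named genes were the KLK genes, the 3 nearest neighbours on each side, the 5 nearest to KLK1, and up to 3 rises and 3 falls per list (groups not overlapping in CPM, mean of at least 1 CPM). Alternatives were other scalings and filters, DESeq2 1.42.0, a replicate block and leaving out each library. Values of 2 listed genes are not reported here.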

Additional observations from a re-analysis of the deposited data

How the results depend on the processing

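Among the members, KLK2 alone had reads in every GFP library, and its fitted log2 fold change lay within 3.30 to 3.75 under the 13 alternatives. KLK3, KLK11 and KLK13 had 0 GFP counts, so that only lower bounds exist for them and no setting could turn their direction, and the ratio of KLK1 rests on 2 GFP reads. The log2 ratio of the members' summed counts was 8.39, 8.06 with total counts and 8.27 to 8.63 without any 1 library (alternatives added after the data were seen). The median of all genes shifted by −0.33 with total counts and −0.13 with upper-quartile factors (log2). Inhibitors lower went from 1 to 2 with total counts and with DESeq2, to 3 with no filter, and to 1 to 2 when 1 library was left out. Substrates and receptors higher went from 1 to 2 with no filter and with DESeq2. Steroid receptors lower went from 2 to 4 with total counts and 1 with the 1 CPM filter. With total counts, epidermal markers lower went from 0 to 1 and prostate markers lower from 1 to 2. Other S1 proteases higher went from 12 to 21 with no filter. The cause was not tested. Same-numbered libraries did not deviate together (correlations −0.0114 to 0.0109), so the numbers were not taken as pairs. The replicate block gave 7914 higher and 8157 lower genes, and no list's count moved by over 1.5 times with it. Depth limits KLK4, KLK6, KLK7, KLK8 and KLK10, with at most 30 counts over any group.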
